A study of Drosophila melanogaster with 36 samples.

Results

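A set of 60 transcripts set REC females apart from females of the other strains most widely, out of 16637 transcripts measured in whole adult *Drosophila melanogaster*. They were selected on the 18 female arrays alone. Levels are log2 values of the normalized array intensity, so that a difference of 1 is 2-fold. For each transcript the female arrays were divided in 5 ways: REC against the rest, SIM1 against the rest, both INV strains against the rest, both REV strains against the rest, and red-eyed against white-eyed strains. In each division the gap was the distance between the lowest array of the higher side and the highest array of the lower side. The transcript went to the division with its largest gap, and the 60 with the largest gap for REC are described here. Of them, 52 were higher in REC females and 8 were lower.

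The study asked what follows when the ultraconserved region CG15121–CG16894 is disrupted by an engineered inversion. All strains have the w1118 background and were kept homozygous, and each strain is a single line. REC is the starting strain, before the heat shocks that induce the flippase. It carries the insertion P{RS3}CB-0236-3 together with the insertion P{RS5}5-HA-1995 on 1 chromosome, both intact. INV1 and INV2 carry the rebuilt mini-white reporter and have the inversion named In(2R)51F11-56E2. SIM1 went through the same heat shocks without gaining the inversion, and in the revertants REV1 and REV2 the standard order of the chromosome was restored. Eyes are red in REC and both INV strains, and white in the other 3 strains. REC differs from the rest in its history and in its intact insertions and is also a line of its own, and these cannot be told apart. Every array held RNA of 50 virgin flies of 1 sex aged 5 to 7 days, and each strain had 3 arrays in each sex, lettered A, B and C.

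Flippase is a recombinase from yeast that cuts and rejoins DNA between its FRT target sites, and sites in opposite orientation on 1 chromosome let it invert the stretch between them. The white gene encodes part of a pigment transporter, and a working mini-white copy turns the white eyes of the w1118 background red. In RNA from whole flies the ovary contributes strongly to the female profile and the testis and accessory glands to the male profile. A lower level in whole flies can mean fewer cells of a type or less RNA per cell, and array values do not tell these apart.

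The file gives FlyBase transcript identifiers without gene names. The gene table used lists 44 of these identifiers (0.264%) and 0 of the 60, so the transcripts are described by identifier, level and pattern, and the tissue of the arrays was not checked against marker genes. Within each sex the arrays had nearly the same distribution of values, with a median of 10.39 in females and 10.95 in males. Over all transcripts, arrays of 1 strain had a median SD of 0.11 in females and 0.21 in males. In males, 4 arrays, namely SIM1 C, REC B and the arrays A and B of INV1, deviated from their strains alike, with correlations of their deviations over all transcripts between 0.36 and 0.82 for arrays of different strains. Male results that were recomputed without REC B and moved by over 1.5 times are also given without it.

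REC against the rest was the division with the largest gap for 7152 transcripts, and for 393 of these the REC arrays did not overlap the other 15. In 228 of the 393 REC was higher, and in 165 it was lower. The same count was 157 for SIM1, 131 for the REV strains, 83 for the INV strains and 73 for eye colour. REC and SIM1 are single strains, whereas the other divisions pool several strains on their smaller side. A side of few arrays falls apart from the rest more easily, so only the counts of REC and SIM1 compare directly. The 60 selected transcripts had gaps from 0.13 to 2.72, with a median of 0.19, and 11 gaps exceeded 0.3. At the limit of the choice, FBtr0079042 was the last one taken (gap 0.128), and FBtr0085573 was the first one left out (gap 0.125). The boundary is thus a cut through closely spaced values and not a break between 2 kinds of transcript.

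FBtr0082287 stood far beyond all the others. Its level in REC females was 11.68, 11.68 and 11.74 on the 3 arrays, and on the other 15 female arrays it lay between 8.32 and 8.96. REC females had a mean of 11.70, against strain means between 8.40 in SIM1 and 8.88 in INV1, a difference of 2.97 from the mean of the 5 other strains or 7.83-fold. Its gap of 2.72 was followed by a next largest gap of 0.54. In REC males the same transcript measured 8.18, 8.22 and 8.37, and in the other males 7.93 to 8.26. The male groups overlapped, and all 18 male arrays lay below the lowest REC female array by more than 3 on the log2 scale.

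FBtr0082249 had the second largest gap among the higher transcripts. Its female REC arrays read 9.02, 9.17 and 9.04, and the other female arrays read from 7.88 to 8.48, a difference of 0.86 between the means. In males the REC arrays read 10.19, 10.65 and 10.12 and the others from 8.96 to 10.28, with a median of 9.68. REC had the highest mean of the 6 strains in both sexes, and in males the REC arrays overlapped INV1 A (10.28) and SIM1 C (10.16).

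Among the 8 lower transcripts, FBtr0079028 had the largest gap and FBtr0070679 the next. FBtr0079028 measured 9.88, 9.97 and 10.08 in REC females and 10.45 to 10.95 in the others, a difference of -0.70. In males it measured 9.06, 8.80 and 9.0 in REC and 8.64 to 9.23 in the rest, so that the REC males lay inside the range of the other strains. FBtr0070679 measured 9.05, 9.10 and 9.14 in REC females against 9.34 to 9.69, a difference of -0.37, and its male REC arrays (8.72, 8.27 and 8.37) again lay among the others (8.06 to 8.84).

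**Figure D1:**
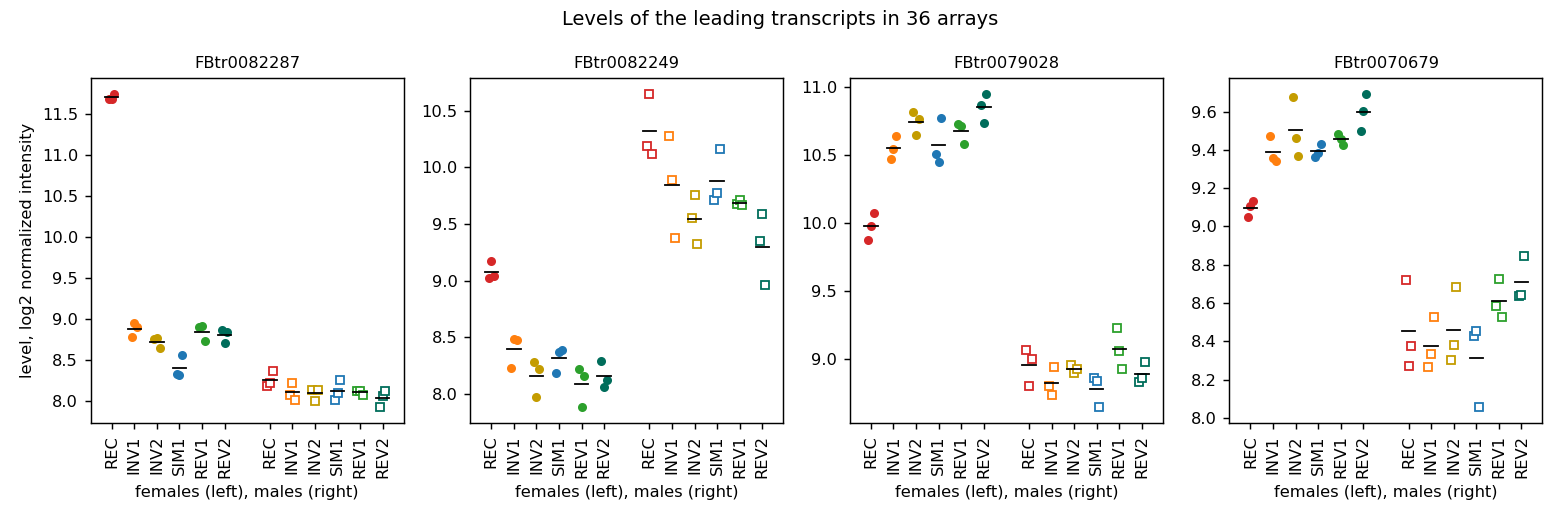
Levels of the 2 higher and the 2 lower transcripts with the largest female gaps on all 36 arrays. The y axis is log2 normalized intensity, with its own range in each panel. Filled circles are female arrays, open squares are male arrays, and black lines are means of 3 arrays. REC females lie apart from all other females in each panel, by 2.72 for FBtr0082287, whereas the REC males overlap the other males.

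Over the 52 higher transcripts the difference between REC females and the mean of the other strains ran from 0.30 to 2.97, with a median of 0.72. Over the 8 lower ones it ran from -0.70 to -0.35, with a median of -0.41. Of the 60, 42 differed by more than 0.5 and 8 by more than 1. These values chose the transcripts and therefore carry no test. A large mean difference did not always come with a large gap. FBtr0076196 had the second largest mean difference (1.46), yet it was rank 59 by gap, because the other strains were spread from 11.06 in REV2 to 13.15 in INV1 below the REC mean of 13.59. The lower transcript with the second largest mean difference was FBtr0083978 (-0.57).

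Array C of REC was the REC array nearest to the other strains for 35 of the 60 transcripts, array B for 14 and array A for 11. The choice depended on that array more than on any other: with it left out, the same rule kept 36 of the 60 transcripts. Without REC A it kept 46, without SIM1 C 44, and without REC B 49. Quantile normalization over all 36 arrays kept 55, and scale normalization within females kept 60.

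The other 5 strains were not equally far from REC in females. For the 52 higher transcripts, the median distance of REC was 0.46 from SIM1, 0.54 from INV1, 0.71 from INV2, 0.80 from REV1 and 0.87 from REV2. SIM1 was the strain nearest to REC for 31 of the 52, INV1 for 11, INV2 for 7 and REV1 for 3, and REV2 was the farthest for 21. For the 8 lower transcripts, INV1 was nearest for 6 and SIM1 for 2, and REV2 was farthest for all 8. The rule itself shaped these distances, since a transcript with both INV strains near REC could go to the division by eye colour instead, so nothing is read from the order of the strains. In males the corresponding medians for the 52 were close to 0, namely 0.03 for SIM1, 0.01 for INV1, 0.13 for INV2, -0.01 for REV1 and 0.06 for REV2. These male medians include array B of REC and were not recomputed without it.

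**Figure D2:**
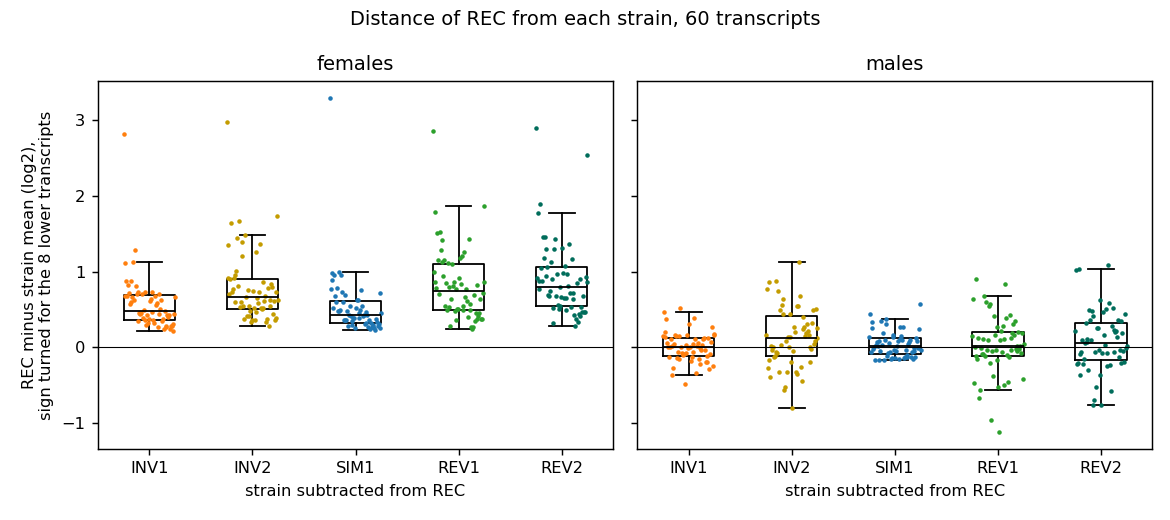
Distance of the REC mean from the mean of each other strain for the 60 transcripts, in females (left) and males (right). The y axis is a log2 difference with its sign turned for the 8 transcripts lower in REC females, points are transcripts, and boxes give the median, the quartiles and whiskers to 1.5 times the interquartile range. All female points lie above 0 by the choice of transcripts, and the male points lie on both sides of 0 for every strain.

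The male arrays took no part in the choice and give a comparison on values that the rule did not use. Males and females of a strain came from crosses of the same line, so the male arrays are not independent of effects of line or cross. In a limma fit of the 18 male arrays, REC minus the mean of the 5 other strains passed a Benjamini-Hochberg adjusted p under 0.01 for 0 of the 60 transcripts, against 5 of all 16637 (0.0301%). The smallest adjusted p among the 60 was 0.402. At an unadjusted p under 0.05, 7 of the 60 differed (11.7%), against 8.19% of all transcripts. All 7 differed in the direction of the females, 6 higher and 1 lower in REC males.

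The sign of the male difference was that of the females for 35 of the 60, namely 29 of the 52 higher and 6 of the 8 lower transcripts. Over all transcripts, REC minus the other strains had the same sign in both sexes for 54.3%. The 35 rested on array B of male REC, since without it 23 of the 60 had the female sign. Without REC C the count was 37. On array B alone 38 transcripts lay on the female side of the mean of the other strains, on array A 28 and on array C 22.

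The median male difference was 0.04 for the 52 higher transcripts, with a range from -0.47 to 0.70, and -0.04 for the 8 lower ones, with a range from -0.33 to 0.14. Without array B of REC both medians changed sign, to -0.03 and 0.03. The median size of the male difference was 0.13 for the 60 and 0.11 for all transcripts, whereas the female difference had a median size of 0.65. The 95% intervals of the male difference had a median half-width of 0.33, and 53 of 60 held 0. For 42 of the 60 the male interval ended short of the female difference. The female values are those that chose the transcripts, so a choice of the largest differences lifts them, and the sizes of the 2 sexes were not tested against each other.

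For FBtr0082287 the male difference was 0.16, with a standard error of 0.08 and a 95% interval from 0.00093 to 0.32 (limma adjusted p = 0.606), against 2.97 in females. Its levels on the male arrays, 7.93 to 8.37, lay around the 5th percentile of all transcripts in males (8.17). At so dim a level a male difference is hard to read. FBtr0082249 differed by 0.67 in males (standard error 0.17, interval 0.31 to 1.03, adjusted p = 0.402), and by 0.50 without array B of REC, against 0.86 in females. The lower transcripts FBtr0079028 and FBtr0070679 differed by 0.06 (interval -0.12 to 0.23) and -0.04 (interval -0.28 to 0.20) in males, with adjusted p of 0.836 and 0.923. Without array B of REC they differed by 0.13 and 0.054. Their intervals end short of the female differences of -0.70 and -0.37.

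**Figure D3:**
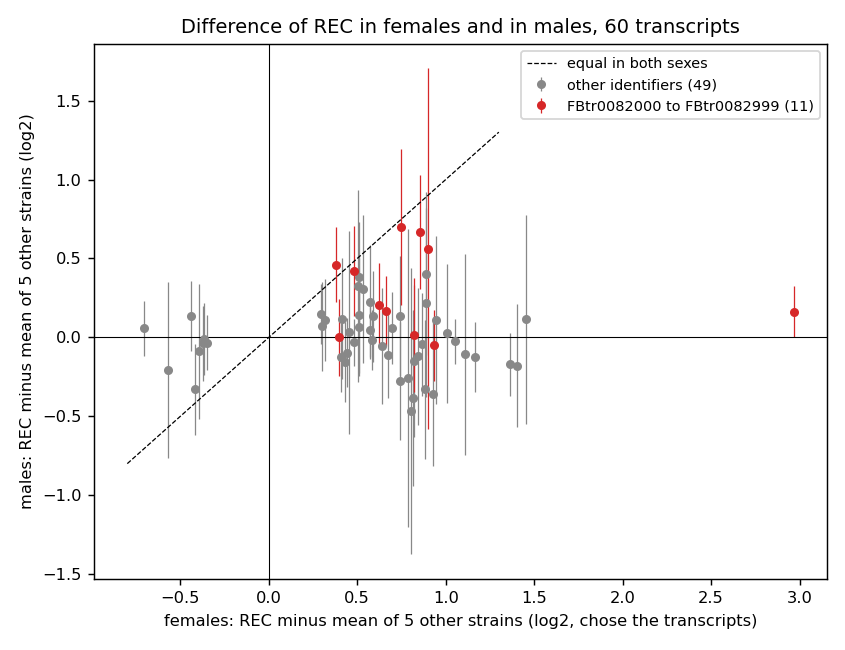
Difference of REC from the mean of the 5 other strains in females (x axis) and in males (y axis), both on the log2 scale, for the 60 transcripts. Bars are 95% intervals of the male difference from limma, and the dashed line marks equal differences. Most points lie near 0 on the male axis at any female difference, and the transcripts numbered FBtr0082000 to FBtr0082999 (red) include the 2 highest male differences, 0.67 and 0.70.

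Counted by arrays, only FBtr0082291 had all 3 REC male arrays beyond the other 15 in the female direction, as did 46 transcripts in either direction overall (0.276%). Its REC males read 12.68, 12.33 and 12.77, and the highest other male read 12.32. The gap of 0.01 is far smaller than the SD of 0.23 among its REC males. With the 4 arrays that deviated alike left out together, 2 REC arrays faced 12 others. Then 7 of the 60 were apart in the female direction and 1 in the opposite direction, against 5.71% of all transcripts. These were the same 7 as those with an unadjusted p under 0.05.

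The identifiers of the 60 were unevenly spread. Of the 35 blocks of 1000 consecutive numbers that hold a transcript of the array, 22 held at least 1 of the 60. The block FBtr0082000 to FBtr0082999 held 11 of them (18.3%), although it holds 710 transcripts, 4.27% of the array, and the next fullest block held 6. All 11 were higher in REC females, and they include FBtr0082287 and FBtr0082249. The block stood out less among the 393 transcripts in which REC females were apart. It held 32 of those (8.14%), and the next fullest block held 27 (6.87%). In females REC was higher for 23 of the 32 and lower for 9. Within the block, the 65 transcripts numbered FBtr0082200 to FBtr0082299 held 5 of the 60 (7.69%, against 0.361% of all transcripts). The block was singled out after the values were seen, so it is a description. The files do not give the chromosome of any of the 60. The gene table places on chromosome arm 3R all 4 identifiers of that block that it lists, and the engineered insertions and the inversion lie on 2R.

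The same block held the transcripts whose male difference was largest. Of its 11 transcripts, 9 had the female sign in males, with a median male difference of 0.21 and a range from -0.05 to 0.70. The remaining 49 had a median of 0.03 in the female direction and a range from -0.47 to 0.40, and 26 of them had the female sign. Without array B of REC, 8 of the 11 had the female sign, with a median of 0.19, and 15 of the 49, with a median of -0.05. Of the 7 transcripts with an unadjusted male p under 0.05, 5 were in the block: FBtr0082249, FBtr0082250, FBtr0082287, FBtr0082291 and FBtr0082298. The male shift was not shared by the block as a whole, whose 710 transcripts had a median male difference of 0.01. Of the 65 transcripts in the narrower run, 11 were higher in REC males at an unadjusted p under 0.05 (16.9%, against 4.49% of all) and 8 were lower (12.3%, against 3.70%). The 11 include the 5 just named, for which the run was singled out, so nothing is read from the share that was higher.

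FBtr0082250, whose identifier follows that of FBtr0082249, behaved like it. In females REC read 8.91, 9.04 and 8.94 and the others 7.93 to 8.48. In males REC read 10.01, 10.76 and 9.98 and the others 9.0 to 10.64, with INV1 A and B (10.20 and 10.20) and SIM1 C (10.64) above the remaining strains. The male difference was 0.70 (standard error 0.23, limma adjusted p = 0.553). Without REC B it was 0.44, so that this estimate moved by over 1.5 times with 1 array. Probes of neighbouring or overlapping transcripts can detect the same RNA, and whether the 2 transcripts share a gene is not given in the sources used here.

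FBtr0082291 and FBtr0082298 had their highest strain mean in REC in both sexes. FBtr0082291 differed by 0.38 in females and 0.46 in males (standard error 0.11, adjusted p = 0.402), and its female REC arrays read 12.28, 12.25 and 12.34 against 11.75 to 12.03. FBtr0082298 differed by 0.48 in females and 0.42 in males (standard error 0.13, adjusted p = 0.516; 0.34 without array B of REC), and its male REC arrays read 10.18, 10.49 and 10.32 against 9.59 to 10.43. The highest of those others were INV1 A, INV1 B and SIM1 C, at 10.32, 10.43 and 10.40. For FBtr0082291, array B was the lowest of the male REC arrays.

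**Figure D4:**
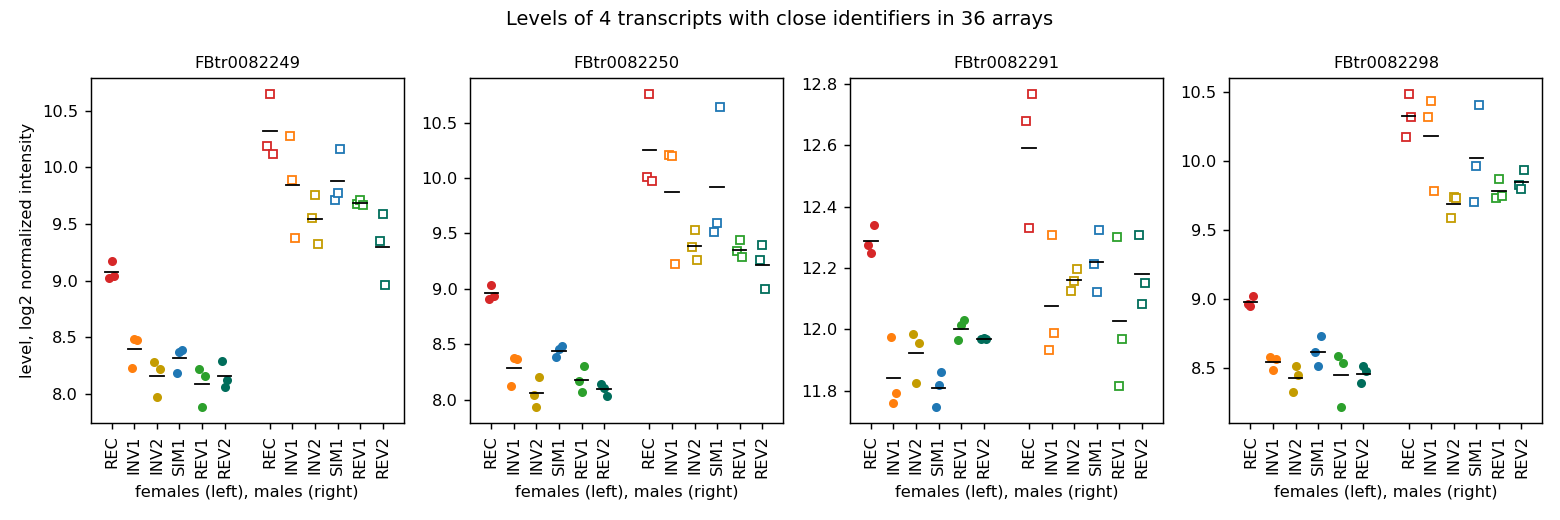
Levels of FBtr0082249, FBtr0082250, FBtr0082291 and FBtr0082298 on all 36 arrays, in log2 normalized intensity with a separate range in each panel. Filled circles are females, open squares are males, and black lines are means of 3 arrays. REC has the highest mean in both sexes in all 4 panels, and for FBtr0082250 and FBtr0082298 the male arrays INV1 A, INV1 B and SIM1 C reach the REC range.

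The 60 transcripts were set against contrasts of the male arrays that divide REC from fewer strains, or that leave REC out. REC minus the INV strains, all with red eyes, called 0 of the 60 and 0.012% of all transcripts. REC minus the white-eyed strains called 0 of the 60 and 0.0421% of all, and its unadjusted p was under 0.05 for 6 of the 60 (10%, against 9.64% of all). INV minus the white-eyed strains called 0 and 0.0541%. REV minus SIM1 called 0 and 0.012%, INV2 minus INV1 0 and 0.018%, and REV2 minus REV1 0 and 0%. At an unadjusted p under 0.05, REC minus INV picked 5 of the 60 (8.33%, against 4.80%), INV minus the white-eyed strains 3 (5.00%, against 4.21%) and REV minus SIM1 4 (6.67%, against 6.68%). INV2 minus INV1 picked 17 (28.3%, against 31.8%) and REV2 minus REV1 1 (1.67%, against 9.39%). Several of these contrasts share arrays and are given side by side. They include the arrays that deviated alike, among them INV1 A and B in INV2 minus INV1, so its shares are not read as a difference of strains.

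By the rule of gaps applied to the male arrays, REC against the rest was the division with the largest gap for 19 of the 60 (31.8% of all transcripts had it). For 26 of the 60 it was the REV strains (42.9% of all), for 13 SIM1 (19.8%), for 2 the INV strains (4.23%) and for 0 eye colour (1.27%). Apart from FBtr0082291, the groups overlapped in every division, so that the largest gap was the smallest overlap. In males the array outside REC that came nearest to REC or passed it was SIM1 C for 18 transcripts, REV2 C for 13, REV1 A for 10, INV1 A for 9 and INV1 B for 6.

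**Figure D5:**
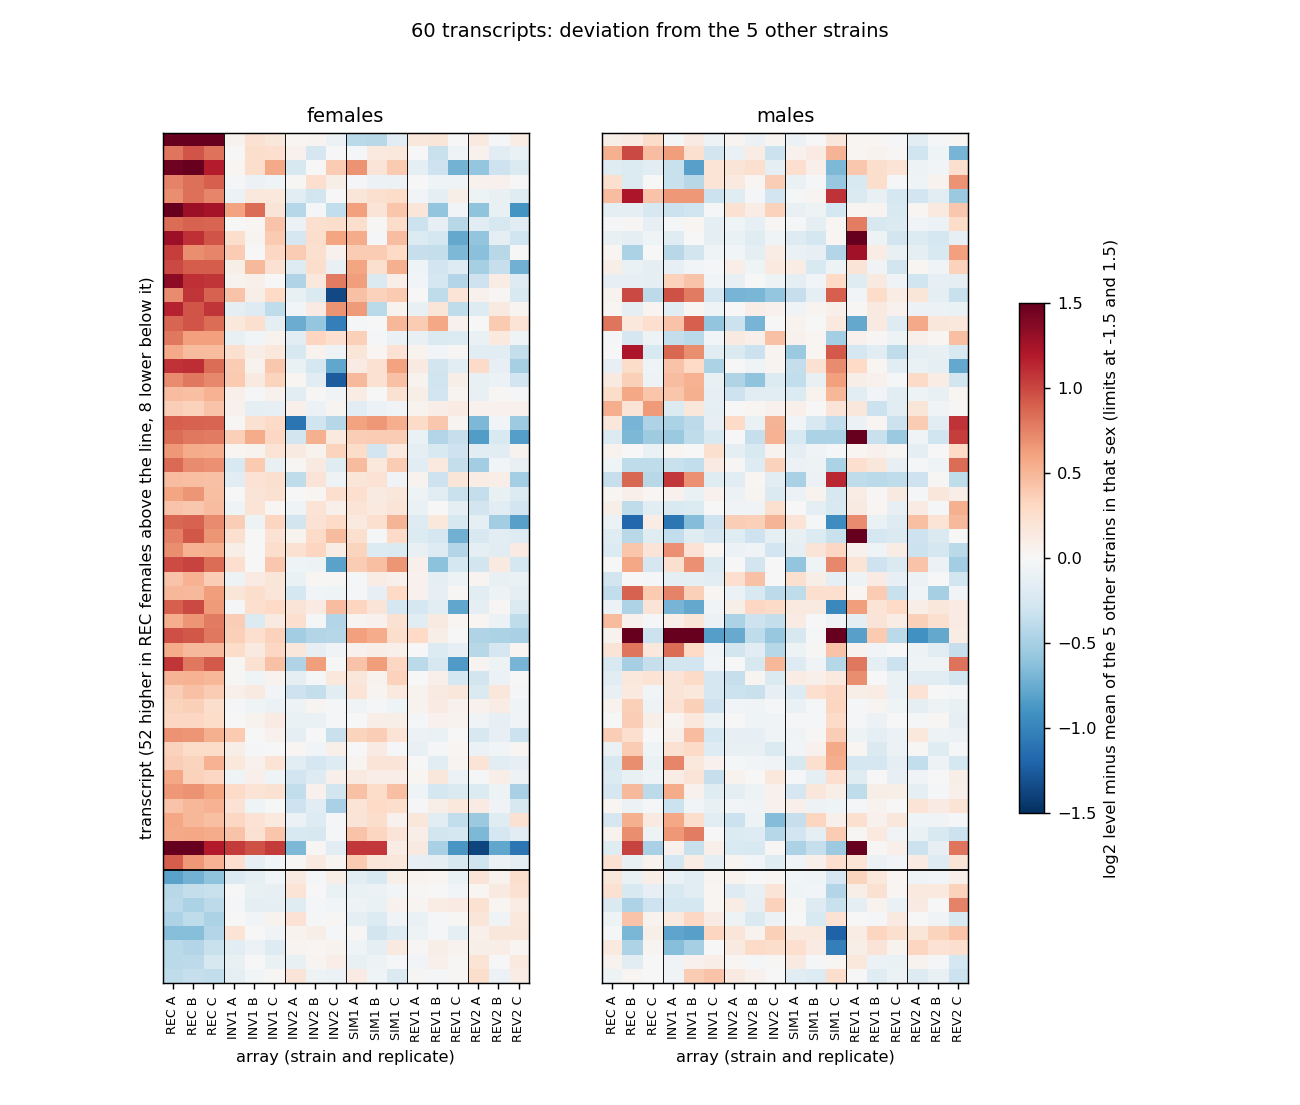
Level of each of the 60 transcripts on each array, as the log2 difference from the mean of the 5 other strains in that sex, with colours limited at -1.5 and 1.5. Rows are the 52 transcripts higher in REC females, then the 8 lower ones below the line, each ordered by gap, and columns are arrays by strain. The 3 REC columns stand out in females, and in males the columns SIM1 C, REC B and A and B of INV1, and single cells of REV1 A and REV2 C, stand out instead.

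The 60 were mostly of middle brightness in females and more often dim in males. In females their mean level over all 18 arrays ran from 7.85 to 13.72 with a median of 10.45. By the level in the other 5 strains, 30 of the 60 lay above the median of all transcripts in females, and 5 of the 60 were among the dimmest 25% of transcripts in females and 6 among the brightest 25%. In males 26 were among the dimmest 25% and 14 among the brightest. Of the 26 that were dim in males, 10 had the female sign there, with a median of -0.05 in the female direction, and 9 had it without array B of REC. Of the other 34, 25 had it, with a median of 0.11, and without array B 14 had it, with a median of -0.01. The 60 were also more variable than most, with a median SD within strains of 0.14 in females and 0.26 in males.

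The sexes were compared in the 5 strains other than REC. Of the 60, 30 were higher in males (57.4% of all transcripts were) and 25 were higher in females (35.4% of all), by limma at an adjusted p under 0.01, with 5 not called. That split depended on the scaling between the sexes: it was 22 to 31 after scale normalization over all 36 arrays (39.5% and 47.8% of all) and 19 to 31 after quantile normalization (33.8% and 50.6%). The median difference of all transcripts, male minus female, was 0.40 as deposited, -0.09 after scale and -0.19 after quantile normalization. The corresponding medians of the 60 were 0.18, -0.44 and -0.51. Of the 60, 28 lay above the median of all transcripts in the deposited values, 28 after scale and 29 after quantile normalization, close to an even division. Leaving out the dimmest 25% of transcripts also removed some of the 60. Of those left, 22 were called higher in males and 17 higher in females (46.4% and 45.7% of all). Their median was 0.22, above the 0.0032 of all, so the side on which they lay depended on whether dim transcripts were kept.

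As deposited, 6 of the 60 were more than 2 on the log2 scale higher in females, and 4 were more than 2 higher in males (4.69% and 12.8% of all). The widest differences on the female side were those of FBtr0081241 and FBtr0071202. FBtr0081241 had a mean of 12.86 in the other females and 9.19 in the other males (a difference of 3.67 with a standard error of 0.20 and a limma adjusted p of 4.3e-15). It had a mean of 13.66 in REC females and 8.72 in REC males. FBtr0071202 had 12.22 and 8.66 (3.56 higher in females, with a standard error of 0.21 and an adjusted p of 1.3e-14), with 13.01 and 8.40 in REC. Both were thus female-biased transcripts that were highest in REC females and not raised in REC males.

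A single male array stood out for these transcripts. REV1 A read 11.55 for FBtr0081241 and 11.73 for FBtr0071202, while the median of the other strains' males was 8.89 and 8.44. On that array 5 of the 60 lay more than 1 above the mean of the other 5 strains, all 5 of them higher in females by the comparison of the sexes, and REV2 C did so for 2. The part of these arrays in the male results was not tested beyond leaving each one out, which called 0 of the 60 in each case.

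On the male side, FBtr0070589 and FBtr0075126 had the widest differences. FBtr0070589 averaged 9.43 in the other females and 12.31 in the other males (2.88 higher in males, standard error 0.09, limma adjusted p = 8.3e-21). It was one of the 8 lower in REC females, at 8.98 to 9.09 on the 3 arrays, and in males REC lay at 11.84 to 12.46 within the 11.29 to 12.63 of the others. FBtr0075126 averaged 9.98 in the other females and 12.82 in the other males (2.85 higher in males, standard error 0.05, adjusted p = 2.5e-25), and REC females read 10.28 to 10.56 against 9.69 to 10.14.

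Between arrays of a strain the 60 varied together only weakly, though with higher mean correlations than all transcripts. The mean pairwise correlation of their deviations from the strain means was 0.08 in females and 0.10 in males for the 52 higher transcripts, and 0.13 and 0.12 for the 8 lower ones, against 0.0023 in females and 0.0011 in males over all transcripts. These correlations are over the 18 arrays of a sex, in males including those that deviated alike, and are a description. Over the 18 male arrays, the transcripts most like FBtr0082287 were FBtr0087192 (Pearson r = 0.82) and FBtr0084694 (0.78). Those most like FBtr0079028 were FBtr0085795 (0.90) and FBtr0113708 (0.89). None of these 4 was among the 60. These correlations are the highest among all transcripts, over arrays that include those deviating alike, so no relation between the transcripts is read from them.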

How the data were processed

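The authors extracted RNA with TRIzol and RNeasy, had it labelled and hybridized in one colour to NimbleGen arrays, took the median over the probes of each transcript after log transformation, and named the scale method of limma for normalization between arrays. Background correction is not given in the sources used here. The deposited values are linear intensities, converted here to log2 without other change. Within a sex, sorted values differed between arrays by at most 0.972% in females and 1.14% in males at any rank, which scale normalization alone does not give. There were 0 missing values, and all 36 columns were used. Control probes were not used here, so the number of arrays sets the precision.

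Strain, sex and replicate came from the labels. Tests were made with lmFit and eBayes of limma 3.58.1, run in R 4.3.3, on every transcript without a filter. A call required an adjusted p (Benjamini-Hochberg) under 0.01. The male arrays were fitted alone, with 1 mean per strain, and the sexes were compared on the 30 arrays of the 5 strains other than REC. The selection and the fits were tested on simulated data. Other computations used Python 3.11.15, numpy 2.4.6 and pandas 2.3.3. The 60 transcripts and the lists were chosen with earlier results of these data known. Named transcripts were those with the largest gaps, the largest mean differences and the largest differences between sexes per direction, those at the limit of the choice, and those most like the leading ones. FBtr0082250, FBtr0082291 and FBtr0082298 were named after their values were seen. Lists of germ line, heat shock, pigment and immune genes were planned but could not be applied without gene names.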

Additional observations from a re-analysis of the deposited data

How the results depend on the processing

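The number of the 60 transcripts called between REC and the other males was 0 with each male array left out in turn and under all other settings but 2. Array weights called 1 (43 of all transcripts), and one fit of all 36 arrays called 1 (18 of all), in both cases FBtr0082291 (0.60, limma adjusted p = 0.00156, and 0.46, adjusted p = 0.00992). The methods' one-way comparison, applied here to REC against the other males and not to the 6 strains, called 1 of all transcripts. With array weights, 1 of the 60 was called for REC minus INV (1.67%, against 0.138% of all), 3 for REC minus the white-eyed strains (5%, against 0.998%), 10 for INV minus the white-eyed strains (16.7%, against 15.1%) and 27 for INV2 minus INV1 (45%, against 41%). The one fit of all arrays called 3 for INV2 minus INV1 (5%, against 12.1%). That contrast includes the INV1 arrays A and B, which deviated alike. The difference of FBtr0070679 turned to 0.12 with array weights, and ran from -0.17 to 0.054 with single male arrays left out (0.054 without REC B). With single arrays left out, the count with the female sign ran from 23 to 37, the calls over all transcripts from 2 (without male REC A) to 5, and the transcripts shared with the original choice from 36 (without female REC C) to 60. The count apart in males was 7 without the 4 arrays that deviated alike, which leaves fewer arrays, and 19 of the 60 were higher in males after quantile normalization. The causes were not tested.

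Within a sex, the replicate letters did not pair arrays of different strains. Of 45 such pairs of arrays with the same letter, the deviations correlated above 0.1 in 15 pairs in females and 16 in males. Whether the letters pair the male and female arrays of a strain was not tested. Of 90 pairs with different letters, they did so in 30 in females and 35 in males, a similar share. With the letter as a replicate block, 0 of the 60 were called between REC and the other males, and 30 and 25 differed between the sexes as before. Each strain had 3 arrays, and the spread was larger in males than in females. The 95% intervals of the male difference had a median half-width of 0.33. Male differences smaller than that could not be told from 0 for many of the 60.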
